A study of Mus musculus with 39 samples.

Results

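Cadherins and protocadherins were followed across punches of the nucleus accumbens (NAc) and the basolateral amygdala (BLA). The members were every mouse gene whose symbol is Cdh or Pcdh with a number, or Pcdha, Pcdhb or Pcdhg, and which had at least 39 reads summed over the 39 libraries. In all, 58 of 51826 counted genes met the rule. They comprised 5 type I cadherins, 13 type II cadherins, 4 atypical cadherins, 4 delta-1 protocadherins, 5 delta-2 protocadherins, 3 other nonclustered protocadherins and 24 clustered protocadherins. Just inside the minimum stood Cdh17 with 47 reads, and Cdh16 stood outside it with 0 reads.

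Cadherins are transmembrane proteins that join cells through calcium-dependent contacts between their extracellular repeats. Classical type I and type II cadherins hold on to the actin skeleton through catenins, and combinations of them mark groups of neurons and the synapses between them. Nonclustered delta protocadherins act in axon growth and synapse remodelling, while the alpha, beta and gamma protocadherins lie in 3 neighbouring gene clusters from which single neurons switch on small sets that serve self-recognition.

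NAc libraries came from 9 mice with a gene-trap allele of Lmo4 (Lmo4gt/+) and 10 wild-type (WT) mice, and BLA libraries from 9 Lmo4gt/+ and 11 WT mice. All were C57BL/6J mice of 8 to 12 weeks with no further treatment named in the labels, and 19 of the 20 animals gave both regions. Lmo4 encodes a LIM-only protein that bridges transcription factors and their cofactors, and the labels name no driver that would restrict the trap to a region or cell type. The accumbens belongs to the ventral striatum, where medium spiny neurons prevail, and the BLA is a pallial nucleus with mostly glutamatergic projection neurons.

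The libraries held 21255934 to 51021670 reads in genes, of which the members took 0.229% to 0.327%. Lmo4 averaged 53.7 ± 8.89 CPM (reads scaled to the size of the library) in NAc Lmo4gt/+ libraries (SD, n = 9), 86.1 ± 11.9 in NAc WT (n = 10), 91.7 ± 13.1 in BLA Lmo4gt/+ (n = 9) and 166 ± 9.37 in BLA WT (n = 11). One library, NAc of mouse 122, is named mutant in its title and wild type in its genotype field, and was kept as Lmo4gt/+. Summed over 6 markers of glutamatergic pallial neurons, the NAc libraries of WT mouse 134 (1226 CPM) and Lmo4gt/+ mouse 122 (737 CPM) stood above all other NAc libraries (3.41 to 249 CPM), and BLA libraries held 1847 to 2408 CPM. Summed over 7 markers of medium spiny neurons, the BLA libraries of mice 129, 149, 156 and 159 had 428 to 506 CPM, the other BLA libraries 107 to 279 CPM and NAc libraries 1585 to 3199 CPM. BLA libraries of mice 127 (647 CPM) and 151 (178 CPM) were high in choroid plexus and ependyma markers, against 5.92 to 42.9 CPM in the other BLA libraries. The NAc library of mouse 149 had the largest share of reads in no gene (38.1%). Its interneuron markers summed to 12.9 CPM, against 62.9 to 151 CPM in the other NAc libraries. The main counts of members called are therefore also given without these mice. Values of single genes between regions are those of the 10 WT and 9 Lmo4gt/+ mice with both regions, so BLA WT there leaves out mouse 151.

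A set of 5 members was too low for any test: Cdh1 (E-cadherin), Cdh3 (P-cadherin), Cdh17, Cdh26 and Pcdh12, with 47 to 237 reads each over all libraries. Of the 74 reads of Cdh1, 49 came from the BLA library of Lmo4gt/+ mouse 138. The other 53 members were tested. Among members with a mean of at least 1 CPM, the coefficient of variation between libraries had a median of 17.9% in NAc Lmo4gt/+, 18.7% in NAc WT, 15.5% in BLA Lmo4gt/+ and 16% in BLA WT. In the BLA it was lowest for Pcdh10 in Lmo4gt/+ mice (4.95%) and for Cdh2 in WT mice (5.20%). Cdh23 varied most in the NAc, at 63.7% in Lmo4gt/+ mice and 63.8% in WT mice.

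Per kb of exon, delta protocadherins led in both regions. Exon lengths came from the GENCODE vM1 annotation, while the annotation used in counting is not known, so the order is uncertain. The length was 3714 bp for Pcdh9, against 10645 bp for Pcdh10 and 8454 bp for Pcdh1. In the NAc, Pcdh10 was highest, with 42.9 ± 5.12 CPM per kb in Lmo4gt/+ mice and 41.6 ± 4.50 in WT mice (SD). Pcdh1 (35.99 ± 5.73 in Lmo4gt/+, 32.8 ± 2.51 in WT) and Pcdh9 (35.1 ± 5.80 in Lmo4gt/+, 37.3 ± 7.37 in WT) followed, and these neighbours in the order lay within their spread. Pcdh17 and Pcdh7 came next and also lay within their spread, at 27.9 ± 8.11 and 24.3 ± 4.33 CPM per kb in NAc Lmo4gt/+ and 24.2 ± 4.52 and 24.3 ± 7.46 in NAc WT. Cdh11, the first classical cadherin in the NAc order, had 16.8 ± 1.89 CPM per kb in Lmo4gt/+ mice and 17.2 ± 1.61 in WT mice. In the BLA the leading 4 were Pcdh1 (57.7 ± 5.18 in Lmo4gt/+, 55.1 ± 5.38 in WT), Pcdh7 (53.3 ± 4.10 and 53.1 ± 6.55), Pcdh10 (49.7 ± 2.46 and 49.2 ± 5.76) and Pcdh9 (47.8 ± 6.13 and 45.1 ± 6.24), each within the spread of its neighbour. A step down separated these from Pcdh8 (26.1 ± 4.84 in Lmo4gt/+, 23.6 ± 3.02 in WT), with Cdh22, Cdh9 and Pcdh19 close behind it.

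**Figure D1:**
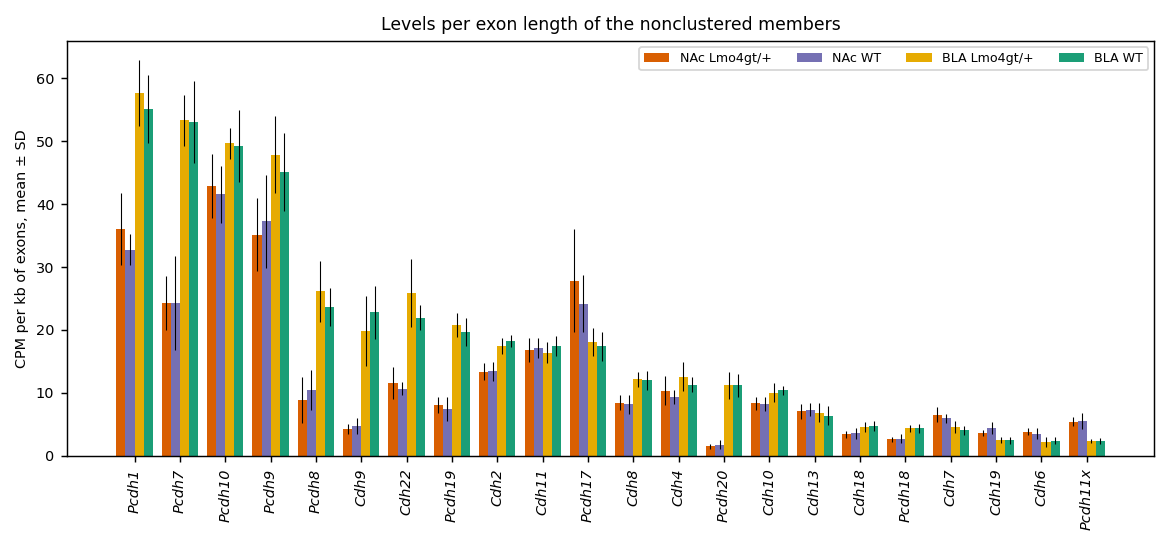
Mean CPM per kb of exons ± SD for the nonclustered members that ranked 18th or higher in at least one group, with NAc Lmo4gt/+, NAc WT, BLA Lmo4gt/+ and BLA WT from left to right. Pcdh10, Pcdh1 and Pcdh9 are high in all 4 groups, while Pcdh7 has 24.3 CPM per kb in both NAc groups and over 53 in both BLA groups.

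The regions differed at most members. In WT mice (10 pairs of libraries, mouse as a block), 43 of the 53 members passed edgeR's quasi-likelihood test at an adjusted p under 0.05, 26 higher and 17 lower in the NAc. Of all genes tested 59.6% passed, 31.1% higher and 28.5% lower. In Lmo4gt/+ mice (9 pairs), which share no library with the WT comparison, 40 members passed, 24 higher and 16 lower, against 52.7% of all genes, 26.2% higher and 26.4% lower. The calls fell on the same side for all 36 members that passed in both genotypes, which are 83.7% of the WT calls and 90% of the Lmo4gt/+ calls. Over all genes, the genes called in both make up 79.4% and 89.1% of the WT and Lmo4gt/+ calls. Of those 7992 genes, 7991 had the same direction in both genotypes, so the shared direction is not particular to the members. Without mice 129, 134 and 156 the WT counts were 25 higher and 17 lower, and without mice 122, 149 and 159 the Lmo4gt/+ counts were 22 higher and 17 lower. Without mouse 127 they were 23 higher and 17 lower in Lmo4gt/+ mice, and without mouse 122 alone 22 higher and 16 lower.

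Past 2-fold, 3 members were higher and 7 lower in the NAc of WT mice (6.79% and 7.03% of all genes), and 5 were higher and 7 lower in Lmo4gt/+ mice (7.41% and 7.64%). CPM ranges of the regions did not overlap for 17 members in WT mice (19.7% of all genes) and 16 in Lmo4gt/+ mice (20.2%). More nonclustered members were lower than higher in the NAc, while every beta protocadherin called was higher. Single nonclustered families held both directions. Type II cadherins had 5 higher and 5 lower in WT mice, and 4 higher and 6 lower in Lmo4gt/+ mice. Of the 29 nonclustered members tested in WT mice, 9 were higher in the NAc, about the 31.1% over all genes. A further 17 were lower, against 28.5% of all genes. The median log2 fold change of the 29 was -0.30 against 0.04 over all genes. In Lmo4gt/+ mice 6 were higher and 16 lower, against 26.2% and 26.4% of all genes, with a median of -0.28 against 0.01. Of the 22 beta protocadherins, 17 were higher in WT mice (31.1% of all genes) and 18 in Lmo4gt/+ mice (26.2%), and none was lower. The beta medians were 0.55 in WT and 0.62 in Lmo4gt/+ mice, against 0.04 and 0.01 over all genes.

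Markers of cell types differed between the punches as well. All 7 markers of medium spiny neurons and all 6 of mature oligodendrocytes were higher in the NAc in both genotypes, with median log2 fold changes of 4.68 and 1.46 in Lmo4gt/+ mice and 4.21 and 1.52 in WT mice. Of the 6 glutamatergic markers, 6 were lower in the NAc of Lmo4gt/+ mice and 5 in that of WT mice, and the defining markers Neurod6 and Rspo2 were at 0 in at least one NAc library. Of 4 interneuron markers, 2 were lower in the NAc of Lmo4gt/+ mice and 4 in that of WT mice (medians -1.48 and -1.21). Of 4 markers of central amygdala and intercalated cells, 3 were higher in the NAc in both genotypes (medians 1.65 and 1.37). Over all genes 26.2% were higher and 26.4% lower in Lmo4gt/+ mice, and 31.1% and 28.5% in WT mice. Summed oligodendrocyte markers ran from 3154 to 6786 CPM in NAc Lmo4gt/+, 3573 to 8053 in NAc WT, 1483 to 2684 in BLA Lmo4gt/+ and 1726 to 2457 in BLA WT. Astrocyte sums were 675 to 876 CPM in NAc libraries and 748 to 937 in BLA libraries, and microglial sums were 156 to 220 and 157 to 194 CPM. The part of these cell types in the member values was not tested, and in bulk tissue fewer cells of a type and less RNA per cell cannot be told apart.

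**Figure D2:**
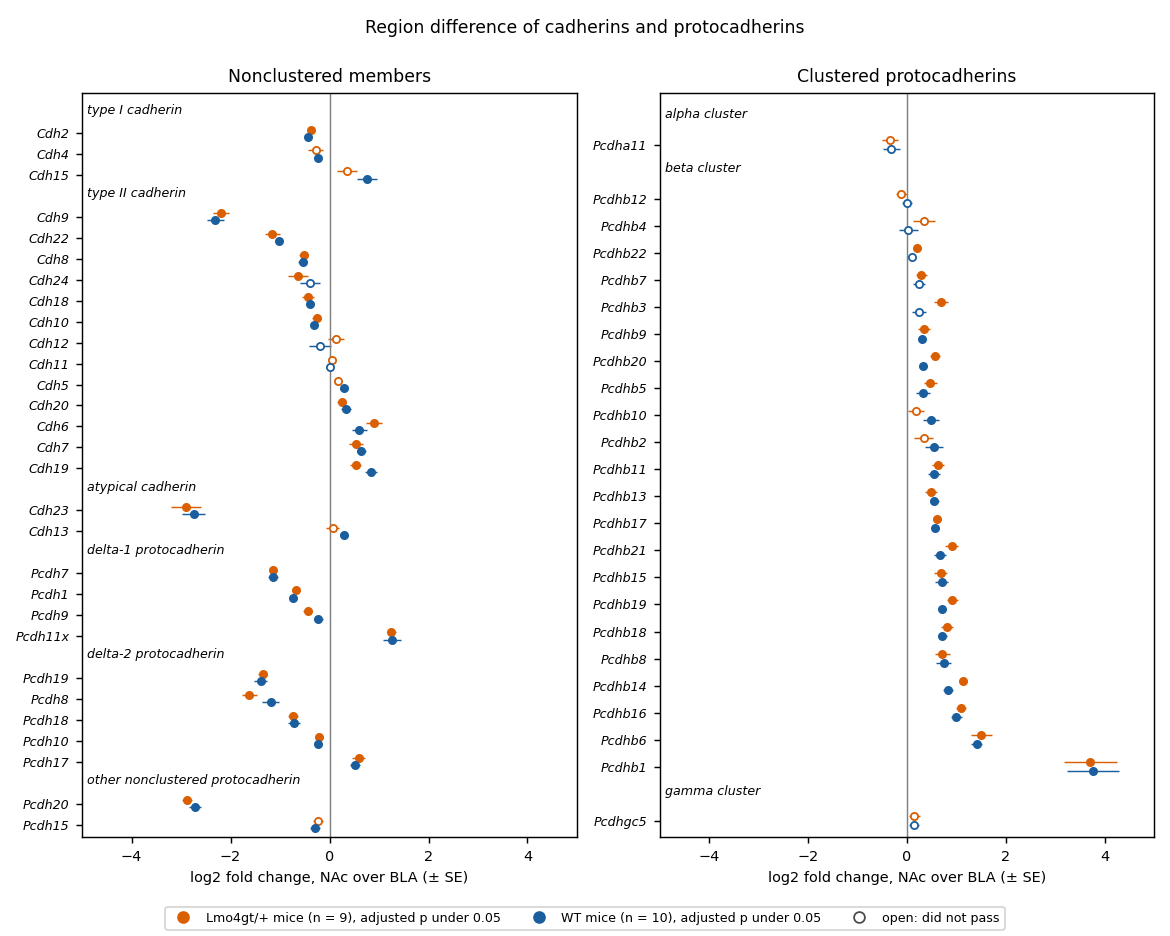
Log2 fold change of NAc over BLA (± SE) for each tested member, grouped by family, in Lmo4gt/+ mice (orange) and WT mice (blue). Filled points passed at an adjusted p under 0.05. Cdh23, Pcdh20 and Cdh9 lie farthest to the left, Pcdhb1 farthest to the right, and nearly all beta protocadherins lie right of 0.

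Among the nonclustered protocadherins the largest change was at Pcdh20, which in mouse cortex takes part in placing layer IV neurons (chromosome 14, 88864554 to 88871203, minus strand, NCBIM37). Pcdh20 ran from 5.17 to 10.9 CPM (median 7.14) in NAc Lmo4gt/+ and from 5.66 to 17.2 CPM (median 7.5) in NAc WT. It ran from 39.05 to 73.2 CPM (median 56.6) in BLA Lmo4gt/+ and from 41.7 to 78.2 CPM (median 59.7) in the paired BLA WT libraries. No NAc library reached any BLA library, and the fold change was -2.89 ± 0.10 (log2, SE) in Lmo4gt/+ mice and -2.72 ± 0.12 in WT mice, or 7.41-fold and 6.58-fold lower in the NAc (adjusted p = 2.64e-11 and 6.28e-10). The 2 highest NAc WT values, 15.3 and 17.2 CPM, came from mice 134 and 139. Summed glutamatergic markers were 1226 CPM in the NAc library of mouse 134 and 16.8 CPM in that of mouse 139. Their part in the Pcdh20 values was not tested. Without mice 129, 134 and 156 the WT fold change of Pcdh20 was -2.81 ± 0.13.

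Pcdh8 (arcadlin), an activity-induced protein that takes N-cadherin away from synapses, was likewise lower in the NAc. It had 16.8 to 71.4 CPM (median 31.3) in NAc Lmo4gt/+ against 79.9 to 129 CPM (median 103) in BLA Lmo4gt/+, and 23.8 to 62.8 CPM (median 43.1) in NAc WT against 72.0 to 115 CPM (median 90.3) in BLA WT. The ranges did not overlap in either genotype, and the NAc library of Lmo4gt/+ mouse 127 was the one at 71.4 CPM. Fitted log2 fold changes were -1.62 ± 0.16 in Lmo4gt/+ mice and -1.19 ± 0.18 in WT mice (adjusted p = 2.23e-06 and 0.000185).

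The other delta-2 genes, several of which bind the WAVE actin-regulating complex, split in direction. Pcdh19, an X-linked partner of N-cadherin whose human gene is mutated in an epilepsy, had 58.0 to 103 CPM (median 83.6) in NAc Lmo4gt/+ and 45.7 to 112 CPM (median 72.2) in NAc WT, against 187 to 248 CPM (median 215) in BLA Lmo4gt/+ and 179 to 238 CPM (median 193) in the paired BLA WT libraries. The regions did not overlap in either genotype, and the log2 fold changes were -1.36 ± 0.10 in Lmo4gt/+ mice and -1.39 ± 0.13 in WT mice (adjusted p = 2.09e-08 and 2.96e-06). Pcdh19 shares 57 bp of exon with Gm16795 on the opposite strand, and reads of both cannot be told apart. Pcdh18 was lower in the NAc by the same -0.73 in both genotypes (SE 0.10 in Lmo4gt/+, 0.12 in WT), with medians of 13.6 CPM in NAc Lmo4gt/+, 15.1 in NAc WT, 23.5 in BLA Lmo4gt/+ and 22.6 in BLA WT. Pcdh10, which guides striatal axons and lets synapses be removed after activity, differed little though it passed, at -0.21 ± 0.07 in Lmo4gt/+ mice and -0.23 ± 0.06 in WT mice.

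Pcdh17, which in mice acts in presynaptic assembly along corticobasal ganglia circuits, was the one delta-2 gene higher in the NAc. It had 189 to 446 CPM (median 239) in NAc Lmo4gt/+ and 163 to 306 CPM (median 222) in NAc WT, against 144 to 206 CPM (median 172) in BLA Lmo4gt/+ and 124 to 195 CPM (median 161) in BLA WT. The ranges overlapped, and 9 of 9 Lmo4gt/+ pairs and 9 of 10 WT pairs had the higher value in the NAc. The log2 fold change was 0.59 ± 0.14 in Lmo4gt/+ mice and 0.52 ± 0.10 in WT mice (adjusted p = 0.00241 and 0.000866).

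Delta-1 protocadherins can bind a protein phosphatase through their cytoplasmic tails. Pcdh7 had 128 to 216 CPM (median 143) in NAc Lmo4gt/+ and 116 to 271 CPM (median 142) in NAc WT, against 298 to 370 CPM (median 324) in BLA Lmo4gt/+ and 284 to 396 CPM (median 322) in BLA WT. No ranges overlapped. The NAc libraries of mice 134 and 122 were the highest for Pcdh7 in their groups, at 271 and 216 CPM. They were also the 2 richest in glutamatergic markers, and the part of these markers was not tested. The log2 fold change was -1.14 ± 0.07 in Lmo4gt/+ mice and -1.14 ± 0.10 in WT mice, and it was -1.22 ± 0.06 and -1.26 ± 0.08 without the mice that stood apart. Pcdh1 was lower in the NAc by -0.68 ± 0.08 in Lmo4gt/+ mice and -0.73 ± 0.05 in WT mice, and Pcdh9 by -0.44 ± 0.09 and -0.23 ± 0.09. The WT call for Pcdh9 was close to the threshold (adjusted p = 0.0446) and was lost without the low-count filter (adjusted p = 0.0709).

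Pcdh11x, the X-linked member of this family, went the other way. Its level was 42.1 to 60.3 CPM (median 47.6) in NAc Lmo4gt/+ and 33.3 to 73.0 CPM (median 50.01) in NAc WT, against 16.2 to 24.1 CPM (median 21.4) in BLA Lmo4gt/+ and 15.6 to 29.7 CPM (median 21.1) in BLA WT. Every NAc library lay above every BLA library. The NAc was 2.37-fold higher in Lmo4gt/+ mice (log2 1.24 ± 0.09, adjusted p = 1.99e-08) and 2.40-fold higher in WT mice (1.26 ± 0.18, adjusted p = 0.000137). Pcdh15, which with Cdh23 forms the tip links of inner-ear hair cells, was lower in the NAc of WT mice at -0.30 ± 0.10 (adjusted p = 0.0158) and had -0.23 ± 0.10 in Lmo4gt/+ mice, where it did not pass (adjusted p = 0.0611). Without the mouse block the WT call of Pcdh15 was lost (adjusted p = 0.0745), and without mouse 127 it passed in Lmo4gt/+ mice (adjusted p = 0.0429).

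Its tip-link partner Cdh23 had the largest fitted fall of all members, within 1 SE of that of Pcdh20, from a low level. Cdh23 had 0.523 to 2.66 CPM (median 0.866) in NAc Lmo4gt/+ and 0.535 to 3.99 CPM (median 1.29) in NAc WT, against 5.21 to 12.5 CPM (median 9.90) in BLA Lmo4gt/+ and 6.72 to 15.6 CPM (median 9.37) in the paired BLA WT libraries. The lowest NAc values of the 2 genotypes rested on 13 and 17 reads, and no NAc library reached a BLA library. The log2 fold change was -2.89 ± 0.30 in Lmo4gt/+ mice and -2.75 ± 0.24 in WT mice (adjusted p = 2.91e-06 and 2.18e-07). Cdh13 (T-cadherin), which is anchored by a lipid and has no cytoplasmic tail, was higher in the NAc of WT mice at 0.29 ± 0.07 and had 0.07 ± 0.13 in Lmo4gt/+ mice. Without the mouse block the WT call of Cdh13 was lost (adjusted p = 0.0625).

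**Figure D3:**
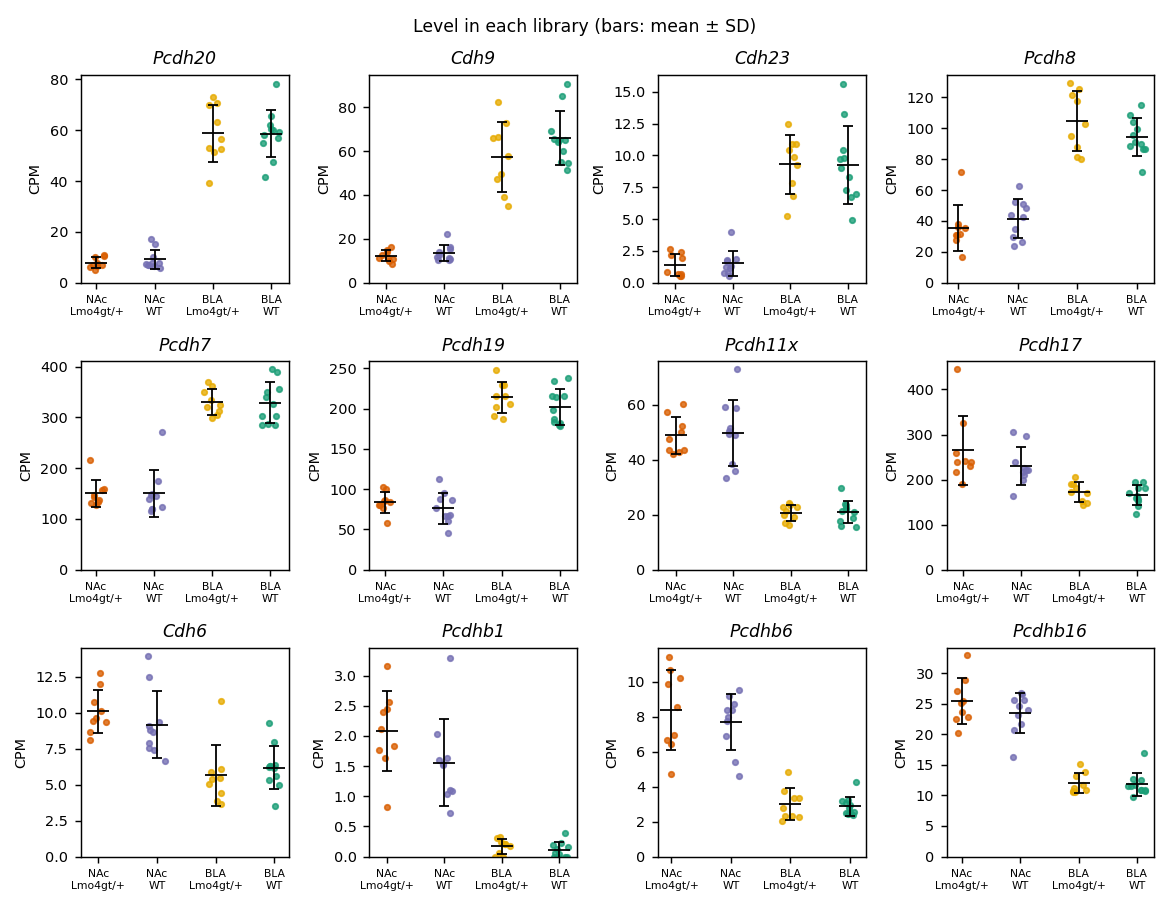
CPM of 12 members in each library (points) with the mean ± SD (bars), for NAc Lmo4gt/+, NAc WT, BLA Lmo4gt/+ and BLA WT from left to right. The first 6 panels are genes lower in the NAc and the last 6 genes higher there, and the regions do not overlap for Pcdh20, Cdh9, Cdh23, Pcdh8, Pcdh7, Pcdh19, Pcdh11x and Pcdhb1.

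Of 13 type II cadherins tested, 4 were higher and 6 lower in the NAc of Lmo4gt/+ mice (26.2% and 26.4% of all genes), and 5 were higher and 5 lower in that of WT mice (31.1% and 28.5% of all genes). Cdh9, which in mice shapes the synapse between dentate granule cells and CA3 neurons, changed most. Its level was 8.70 to 16.4 CPM (median 11.3) in NAc Lmo4gt/+ and 10.3 to 22.1 CPM (median 12.0) in NAc WT, against 35.01 to 82.4 CPM (median 57.9) in BLA Lmo4gt/+ and 51.4 to 90.7 CPM (median 64.8) in BLA WT. All NAc libraries lay below all BLA libraries. The highest NAc value was again that of mouse 134, and the part of its glutamatergic markers was not tested. The log2 fold change was -2.19 ± 0.16 in Lmo4gt/+ mice and -2.31 ± 0.18 in WT mice, or 4.56-fold and 4.94-fold lower in the NAc (adjusted p = 9.80e-08 and 7.77e-07).

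Cdh22 followed, with medians of 39 CPM in NAc Lmo4gt/+, 38.7 in NAc WT, 92.1 in BLA Lmo4gt/+ and 80.8 in the paired BLA WT libraries. The regions did not overlap, and the log2 fold change was -1.15 ± 0.15 in Lmo4gt/+ mice and -1.02 ± 0.06 in WT mice. Cdh8, a cadherin of corticostriatal synapses in mice, was lower at -0.52 ± 0.09 and -0.54 ± 0.09, with overlapping ranges. Cdh10 and Cdh18 were also lower in both genotypes, with log2 fold changes between -0.44 and -0.26. Cdh24 passed in Lmo4gt/+ mice alone (-0.64 ± 0.20, adjusted p = 0.0142, against -0.40 ± 0.20 and 0.109 in WT mice). Its exons overlap CT009512.1 on the opposite strand by 284 bp.

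Higher in the NAc were Cdh6, Cdh7, Cdh19 and Cdh20 in both genotypes. Cdh6 had 8.12 to 12.7 CPM (median 9.63) in NAc Lmo4gt/+ and 6.64 to 13.97 CPM (median 8.71) in NAc WT, against 3.68 to 10.9 CPM (median 5.42) in BLA Lmo4gt/+ and 3.52 to 9.27 CPM (median 6.203) in BLA WT. The ranges overlapped, in Lmo4gt/+ mice through 1 BLA library, that of mouse 159, and the log2 fold change was 0.90 ± 0.17 in Lmo4gt/+ mice and 0.60 ± 0.15 in WT mice. Cdh7 was higher at 0.54 ± 0.14 and 0.64 ± 0.09. Cdh19, which is expressed in glial cells of the myelinating lineages, was higher at 0.53 ± 0.11 and 0.84 ± 0.12, beside the oligodendrocyte markers given above. For Cdh20 the values were 0.25 ± 0.09 in Lmo4gt/+ mice and 0.32 ± 0.10 in WT mice, and the call was lost in both without the mice that stood apart (adjusted p = 0.0983 and 0.0762).

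Cdh5 (VE-cadherin), the cadherin of endothelial junctions, was higher in the NAc of WT mice at 0.30 ± 0.08 (adjusted p = 0.00385) and had 0.17 ± 0.08 in Lmo4gt/+ mice (adjusted p = 0.0881). Of 5 endothelial markers 1 was higher in the NAc of Lmo4gt/+ mice (26.2% of all genes) and 4 in that of WT mice (31.1%). Their median log2 fold changes were 0.05 in Lmo4gt/+ and 0.23 in WT mice. Their sums were 161 to 215 CPM in NAc libraries and 146 to 179 CPM in BLA libraries, and their part was not tested. Cdh11 and Cdh12 did not pass. Cdh11 had 0.05 ± 0.08 in Lmo4gt/+ mice and -0.00 ± 0.06 in WT mice.

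Of the type I cadherins, Cdh2 (N-cadherin), the main classical cadherin of synapses, was modestly lower in the NAc. It had 93.3 to 128 CPM (median 109) in NAc Lmo4gt/+ and 89.0 to 127 CPM (median 106) in NAc WT, against 117 to 152 CPM (median 144) in BLA Lmo4gt/+ and 136 to 161 CPM (median 146) in BLA WT. The ranges did not overlap in WT mice and overlapped in Lmo4gt/+ mice through 1 BLA library at 117 CPM. Its fold change was -0.38 ± 0.06 in Lmo4gt/+ mice and -0.43 ± 0.05 in WT mice (adjusted p = 5.90e-05 and 1.09e-06). Cdh4 (R-cadherin) was lower in the NAc of WT mice at -0.23 ± 0.07 and Cdh15 (M-cadherin, known from muscle) was higher there at 0.76 ± 0.20, from medians of 2.52 CPM in the NAc and 1.62 CPM in the paired BLA libraries. Neither passed in Lmo4gt/+ mice, with -0.28 ± 0.16 and 0.35 ± 0.21. The difference between genotypes was tested by the interaction given below.

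Members that differed in opposite directions in both genotypes followed each other, with no other member between, on chromosomes 14, 15 and X (NCBIM37). The order takes in members only, and how often other genes follow each other in such ways was not counted. On chromosome 14, Pcdh17 (84843370 to 84936867), higher in the NAc, lay between Pcdh8 (80166587 to 80171119) and Pcdh20 (88864554 to 88871203), both lower. On chromosome 15, Cdh6 (12963955 to 13103394), higher in the NAc, was followed by Cdh9 (16707856 to 16786522), Cdh10 (18748702 to 18943990), Cdh12 (21041207 to 21519288) and Cdh18 (22478777 to 23404173), none of which was higher. On chromosome X, Pcdh11x (117403868 to 118024228), higher in the NAc, was followed by Pcdh19 (130117402 to 130223532), which was lower. On chromosome 1, the 3 members Cdh20 (106665106 to 106892058), Cdh7 (111878904 to 112036734) and Cdh19 (112785772 to 112873949) were all higher. The 250 bases before the annotated start of 5 of these genes are shown so that the neighbours of opposite direction can be compared. They are RefSeq sequences on GRCm38.p6, read 5′ to 3′ on the gene's strand, and capitals mark exact matches, on either strand, to a GC box (GGGCGG) or a TATA box (TATAAA).
Pcdh8, chr14:79771313-79771562, minus strand: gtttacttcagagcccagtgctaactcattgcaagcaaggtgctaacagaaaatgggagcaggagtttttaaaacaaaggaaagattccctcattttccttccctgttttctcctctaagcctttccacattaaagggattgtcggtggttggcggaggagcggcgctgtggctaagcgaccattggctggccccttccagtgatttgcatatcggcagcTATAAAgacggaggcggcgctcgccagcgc
Pcdh17, chr14:84443313-84443562, plus strand: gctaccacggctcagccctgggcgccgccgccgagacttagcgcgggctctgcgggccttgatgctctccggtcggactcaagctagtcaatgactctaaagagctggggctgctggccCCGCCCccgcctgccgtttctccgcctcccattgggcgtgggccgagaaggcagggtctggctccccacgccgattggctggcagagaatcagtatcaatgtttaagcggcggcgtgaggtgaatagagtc
Pcdh20, chr14:88471397-88471646, minus strand: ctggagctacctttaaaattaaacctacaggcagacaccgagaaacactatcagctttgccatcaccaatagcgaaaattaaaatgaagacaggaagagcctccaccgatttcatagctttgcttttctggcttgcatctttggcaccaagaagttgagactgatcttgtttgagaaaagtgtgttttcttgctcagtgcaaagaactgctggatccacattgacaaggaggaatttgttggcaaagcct
Cdh6, chr15:13173676-13173925, minus strand: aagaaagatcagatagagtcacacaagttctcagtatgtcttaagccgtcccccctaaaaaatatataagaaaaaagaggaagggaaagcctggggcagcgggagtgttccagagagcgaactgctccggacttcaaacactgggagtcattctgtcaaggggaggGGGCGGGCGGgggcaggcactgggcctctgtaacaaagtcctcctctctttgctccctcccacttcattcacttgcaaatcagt
Cdh9, chr15:16728665-16728914, plus strand: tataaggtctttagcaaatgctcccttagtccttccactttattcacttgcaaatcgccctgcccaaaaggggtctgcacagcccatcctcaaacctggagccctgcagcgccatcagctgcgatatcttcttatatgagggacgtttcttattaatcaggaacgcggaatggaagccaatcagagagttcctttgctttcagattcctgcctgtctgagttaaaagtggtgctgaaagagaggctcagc
The GC content of these stretches was 51.2% for Pcdh8, 64.8% for Pcdh17, 42.4% for Pcdh20, 51.2% for Cdh6 and 48.0% for Cdh9, with 11, 21, 3, 6 and 6 CpG dinucleotides. A GC box was present before Pcdh17 and Cdh6 and not in the window of the other 3, and a TATA box before Pcdh8. Over 22 members with 25 promoters in the table, a GC box was found in 9 promoters, a TATA box in 2, an E-box (CAGATG) in 2 and a CRE (TGACGTCA) in 0, against 32.7%, 12.4%, 14.4% and 1.55% of all 32851 promoters of that length. The GC boxes stood before members of either direction, such as Pcdh17 and Cdh6 and also Pcdh19 and Cdh22. Motif matches are letters in a window and were not tested against the expression values.

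The clustered protocadherins lie on chromosome 18. The beta genes each have a single coding exon, whereas alpha and gamma transcripts join one variable exon to shared constant exons, so reads in the constant part cannot be assigned to one gene. Only the beta cluster was covered gene by gene here, with 22 genes from Pcdhb1 (37424652 to 37427108) to Pcdhb22 (37678007 to 37681073). The identifiers named Pcdha11 and Pcdhgc5 span the whole alpha and gamma clusters in the NCBIM37 annotation, and which variable exon their counts come from is not known. Other alpha and gamma genes were not analysed here. Neither Pcdha11 (-0.34 ± 0.16 in Lmo4gt/+ mice, -0.32 ± 0.17 in WT mice) nor Pcdhgc5 (0.15 ± 0.11 and 0.14 ± 0.11) passed in either genotype, but without mice 122, 149 and 159 Pcdha11 did in Lmo4gt/+ mice (-0.49, adjusted p = 0.0440). The exons of both overlap opposite-strand genes, Gm10545 by 2340 bp and Gm16882 by 1339 bp.

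The beta genes together were higher in the NAc. Their summed level was 226 to 305 CPM (median 264) in NAc Lmo4gt/+ and 211 to 255 CPM (median 253) in NAc WT, against 147 to 177 CPM (median 170) in BLA Lmo4gt/+ and 151 to 188 CPM (median 168) in BLA WT. No NAc library fell into the range of the BLA. With the cluster as a single row of the table, the log2 fold change was 0.64 ± 0.07 in Lmo4gt/+ mice (1.56-fold, adjusted p = 1.83e-06) and 0.51 ± 0.05 in WT mice (1.43-fold, adjusted p = 2.58e-07). Of the 22 genes, 21 had a value above 0 in each genotype, and the exception in both was Pcdhb12 (-0.12 ± 0.12 in Lmo4gt/+, -0.00 ± 0.09 in WT). Among all genes tested, 8645 of 17026 were above 0 in Lmo4gt/+ mice and 9007 of 16887 in WT mice.

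Pcdhb1, at one end of the cluster, changed most and from the lowest level. It had 0.827 to 3.16 CPM (median 2.12) in NAc Lmo4gt/+ and 0.724 to 3.29 CPM (median 1.53) in NAc WT, against 0 to 0.328 CPM (median 0.2) in BLA Lmo4gt/+ and 0 to 0.396 CPM (median 0.0969) in the paired BLA WT libraries. The whole BLA Lmo4gt/+ group held 47 reads of it and all BLA WT libraries 37, against 596 and 451 in the NAc groups. Every NAc library lay above every BLA library. The fitted log2 fold change was 3.70 ± 0.54 in Lmo4gt/+ mice and 3.76 ± 0.52 in WT mice (adjusted p = 3.64e-05 and 1.03e-05), a size that depends on the handling of libraries at 0. Pcdhb1 passed the count filter of these tests through the NAc libraries, where it is high, and was under the filter within the BLA, so its call is a description of where reads were found.

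Pcdhb6 was the next largest, with 4.75 to 11.4 CPM (median 8.53) in NAc Lmo4gt/+ and 4.63 to 9.52 CPM (median 8.16) in NAc WT, against 2.01 to 4.84 CPM (median 2.75) in BLA Lmo4gt/+ and 2.37 to 4.24 CPM (median 2.84) in BLA WT. The ranges did not overlap in WT mice and touched in Lmo4gt/+ mice, where both the lowest NAc and the highest BLA value came from mouse 122. The log2 fold change was 1.499 ± 0.21 in Lmo4gt/+ mice and 1.41 ± 0.11 in WT mice (adjusted p = 3.05e-05 and 2.42e-08). Pcdhb14 (1.12 ± 0.08 and 0.83 ± 0.09) and Pcdhb16 (1.09 ± 0.10 and 0.996 ± 0.11) followed. At the other end of the cluster Pcdhb22 differed little, at 0.21 ± 0.07 in Lmo4gt/+ mice, where it passed, and 0.10 ± 0.07 in WT mice. The Pcdhb22 call was lost without mice 122, 149 and 159 (adjusted p = 0.0789).

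Shares of the beta reads are given by gene. Pcdhb6 took 3.19% ± 0.69 of them in NAc Lmo4gt/+ and 3.16% ± 0.63 in NAc WT, against 1.80% ± 0.58 in BLA Lmo4gt/+ and 1.69% ± 0.24 in BLA WT (SD over libraries). Pcdhb16 took 9.74% ± 0.58 and 9.66% ± 0.95 in the NAc, against 7.17% ± 0.94 and 6.92% ± 0.82 in the BLA. Pcdhb22 took 8.10% ± 0.53 and 8.04% ± 0.43 in the NAc, against 10.9% ± 0.76 and 10.8% ± 1.07 in the BLA. These shares were not tested. Beta exons resemble one another, and reads that the counting classed as not unique (5.75% to 10.1% of a library) enter no gene, so levels of single beta genes are uncertain. The annotation lists Pcdhb20 as a pseudogene.

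**Figure D4:**
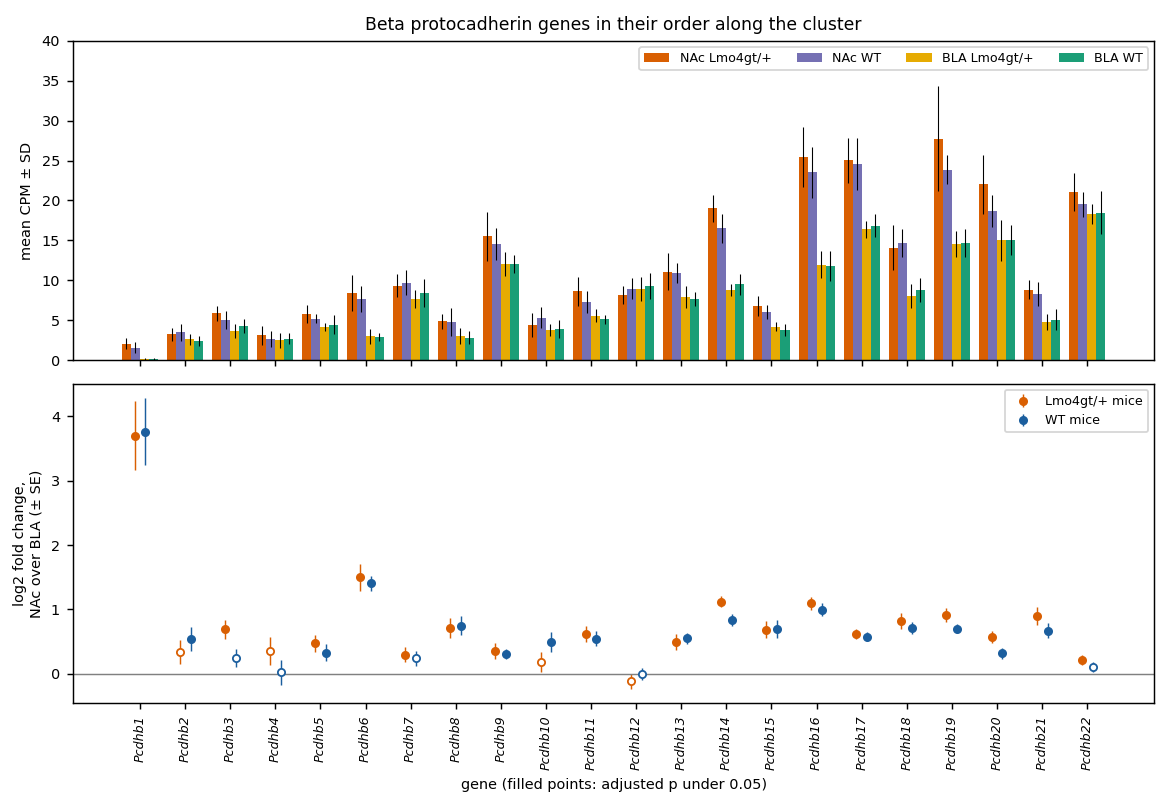
Upper panel: mean CPM ± SD of the 22 beta protocadherins in their order along the cluster, for NAc Lmo4gt/+, NAc WT, BLA Lmo4gt/+ and BLA WT from left to right. Lower panel: log2 fold change of NAc over BLA ± SE in Lmo4gt/+ mice and WT mice, filled where the adjusted p was under 0.05. Pcdhb1 stands out at 3.70 and 3.76 and Pcdhb12 lies at or under 0.

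Partners of the cadherins were mixed, and their counts stand beside 26.2% higher and 26.4% lower of all genes in Lmo4gt/+ mice and 31.1% and 28.5% in WT mice. Of 14 catenins and junction proteins, 4 were higher and 6 lower in the NAc of Lmo4gt/+ mice, and 4 were higher and 8 lower in that of WT mice. Their median log2 fold changes were -0.17 in Lmo4gt/+ and -0.19 in WT mice, against 0.01 and 0.04 over all genes. The higher ones were led by Ctnna3 (alpha-T-catenin, 1.85 ± 0.27 in Lmo4gt/+, 1.52 ± 0.18 in WT), Jup (plakoglobin, 1.23 ± 0.07 and 1.06 ± 0.07) and Vcl (vinculin, 0.83 ± 0.09 and 0.75 ± 0.07). The lower ones were led by the nectin genes Pvrl1 (-1.60 ± 0.16 and -1.37 ± 0.20), Pvrl3 (-0.74 ± 0.09 and -0.73 ± 0.08) and Pvrl2 (-0.67 ± 0.16 and -0.48 ± 0.13). Ctnnb1 (beta-catenin), the link from classical cadherins to alpha-catenin, was lower at -0.54 ± 0.06 and -0.46 ± 0.04.

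Of 14 tested genes of the wider cadherin superfamily, 7 were higher and 5 lower in both genotypes (52.7% of all genes passed in either direction in Lmo4gt/+ mice and 59.6% in WT mice), with medians of 0.35 in Lmo4gt/+ and 0.20 in WT mice against 0.01 and 0.04 over all genes. Dsc2 (2.32 ± 0.33 in Lmo4gt/+, 1.92 ± 0.43 in WT) and Dsg2 (2.19 ± 0.31 and 1.83 ± 0.30), which build desmosomes, and Cdhr1 (2.11 ± 0.19 and 1.57 ± 0.25), a photoreceptor cadherin, were the highest. Fat4 (-1.69 ± 0.17 and -1.29 ± 0.07), a giant cadherin of planar polarity, and the synaptic calsyntenin genes Clstn2 (-1.57 ± 0.15 and -1.61 ± 0.17) and Clstn1 (-0.72 ± 0.07 and -0.73 ± 0.06) were the lowest. Of 11 genes that act on the choice of clustered protocadherins, 7 were higher and none lower in both genotypes, against 26.2% higher of all genes in Lmo4gt/+ mice and 31.1% in WT mice. Their medians were 0.24 in Lmo4gt/+ and 0.22 in WT mice, against 0.01 and 0.04 over all genes. Stag1 (0.57 ± 0.07 and 0.44 ± 0.05), Stag2 (0.46 ± 0.07 and 0.42 ± 0.05), both cohesin subunits, and Nipbl (0.39 ± 0.08 and 0.38 ± 0.04), the cohesin loader, changed most.

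The study's own question was the effect of the Lmo4 allele. In the NAc no member of 53 passed between Lmo4gt/+ and WT mice (0.00588% of all genes did), and by unadjusted p under 0.05 there were 5 members, against 2.67% of all genes. DESeq2 also called none and had 5 at an unadjusted p under 0.05. By edgeR the 5 were Cdh19 (-0.31 ± 0.12), Cdh20 (-0.29 ± 0.12), Pcdhb14 (0.20 ± 0.08), Pcdhb20 (0.23 ± 0.09) and Pcdhb19 (0.22 ± 0.10), and Cdh24 had the next smallest p among the lower ones (-0.49 ± 0.28). Pcdhb14 had 16 to 21.02 CPM (median 19.5) in NAc Lmo4gt/+, against 13.5 to 19.03 CPM (median 17.1) in NAc WT. Cdh19 had 8.95 to 13.2 CPM (median 10.8) in NAc Lmo4gt/+, against 9.49 to 20.5 CPM (median 13.2) in NAc WT. The ranges overlapped for each of them. Without NAc libraries 122, 134 and 149 only Cdh20 of these was under 0.05, and without NAc library 122 there were 6 members. Mature oligodendrocyte markers had a median of -0.27 in the same comparison, with 0 of 6 called, and their part in the Cdh19 value was not tested.

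In the BLA no member of 52 passed between Lmo4gt/+ and WT mice (0.00585% of all genes), and 1 was under an unadjusted p of 0.05, against 4.11% of all genes. DESeq2 gave the same 0 and 1. No member passed without BLA libraries 129, 149, 156 and 159 or without BLA library 127 or 151, and 1, 1 and 2 members were then under an unadjusted p of 0.05. That member was Cdh22, with 67.7 to 136 CPM (median 92.1) in BLA Lmo4gt/+ and 69.3 to 91.9 CPM (median 81.8) in BLA WT, at 0.24 ± 0.09. Cdh7 (0.18 ± 0.11) and Cdh4 (0.15 ± 0.09) came next among the higher ones. Cdh20 (-0.18 ± 0.11), Cdh11 (-0.09 ± 0.06) and Cdh2 (-0.07 ± 0.04) had the smallest p among the lower ones, and none passed.

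The intervals bound how large a genotype difference could be. In the NAc the 95% interval excluded a 1.5-fold difference in either direction for 45 of 53 members (73.3% of all genes) and a 2-fold one for 52 (89.4%). In the BLA it excluded 1.5-fold for 51 of 52 members (77.1%) and 2-fold for all 52 (92.0%). Cdh24 in the NAc, with an interval from -1.06 to 0.08, was the one member not bounded at 2-fold. The beta cluster as a whole had 0.10 ± 0.07 in the NAc and -0.03 ± 0.04 in the BLA, and no catenin, superfamily or choice gene on the lists passed in either region.

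**Figure D5:**
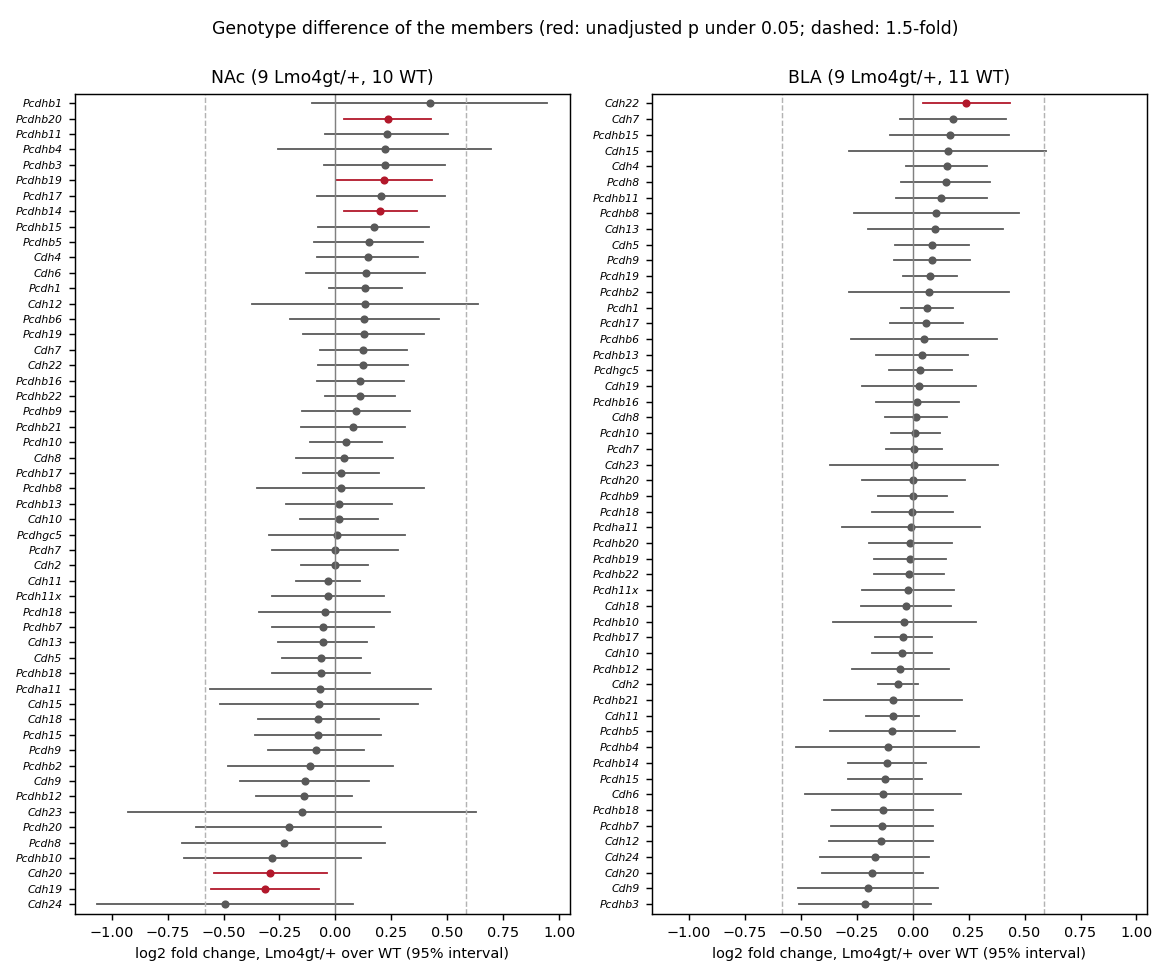
Log2 fold change of Lmo4gt/+ over WT with its 95% interval for each tested member, in the NAc (left) and the BLA (right). Red marks an unadjusted p under 0.05, and dashed lines mark 1.5-fold. No member passed after adjustment, and most intervals lie inside the dashed lines.

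The region difference was also set against genotype directly. In the interaction of region and genotype (38 libraries of 19 mice), 0 of 53 members and 0.0% of all genes passed, and 3 members were under an unadjusted p of 0.05 against 2.96% of all genes, while DESeq2 called none and had 4. The 3 were Pcdhb14 (0.31 ± 0.12), Pcdhb3 (0.45 ± 0.20) and Pcdhb20 (0.26 ± 0.12), where a positive value means a larger NAc excess in Lmo4gt/+ mice. Cdh19 (-0.30 ± 0.17), Pcdh8 (-0.41 ± 0.25) and Pcdh9 (-0.20 ± 0.13) had the smallest p among the negative ones. Without mice 122, 129, 134, 149, 156 and 159 no member was under 0.05, and without mouse 127 there were 5. The region effects of members that passed in 1 genotype alone, such as Cdh4, Cdh5, Cdh13, Cdh15 and Cdh24, were therefore not shown to differ between genotypes. For the beta cluster sum the interaction was 0.13 ± 0.08.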

How the data were processed

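For each library the authors deposited a table of raw counts, in whole reads by Ensembl identifier. Frozen brains were cut at 300 µm, punched, and sequenced as polyA RNA, per the labels' protocols. HISAT2, HTSeq 0.11.1, MultiQC 1.7 and DESeq2 with build mm9 are named in the submitters' processing notes; no source used here gives the strand setting, counting mode or annotation. Gene names and positions were taken from the NCBIM37 annotation GENCODE vM1 (32708 of 51826 identifiers, 98.3% of gene counts); the files carry later gene versions, so limits used in counting may differ. Reads in no gene (mean 29.7%) were left out.

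Genes were tested with edgeR 4.0.16 (TMM, filterByExpr with a minimum count of 10, robust quasi-likelihood F test, two-sided, Benjamini-Hochberg over all genes, threshold 0.05). The procedure was also run on counts simulated without mouse effects, which cannot check the mouse block or punches of mixed cell content. A ± beside a log2 value is its SE. Levels are CPM on TMM-scaled library sizes. Region comparisons and the interaction kept the mouse as a block. The pairing comes from the shared mouse numbers of the labels, and the counts show it only weakly. Deviations correlated over 0.1 in 6 of 19 pairs (median r 0.041, against -0.0038 for other mice). Of the 19 NAc libraries in pairs, 5 correlated best with the BLA library of their own mouse. No 2 libraries were repeats (lowest chi-square per degree of freedom 6.33 over 172 pairs). Nothing in the labels gives sex, litter or batch. Members, lists and alternatives were chosen with earlier results of these data known. Named genes are up to 10 called nonclustered members per direction, those with the largest change in WT mice. Each had a mean of at least 1 CPM in either group. Only 9 were called higher, so all of these were named. Also named are all tested type I and delta members, 2 beta genes, and the 3 smallest p per direction for genotype and interaction. For each list of partners, up to 3 called genes per direction are named. Further genes are given to complete a family and were chosen after their values were seen.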

Additional observations from a re-analysis of the deposited data

Results flagged for a closer look

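Single libraries stood apart from the rest of their group for 10 of the 96 combinations of member and group that were looked at, and chance alone gives about 1 in 20. In NAc Lmo4gt/+ mice, the library of mouse 149 was high for Cdh22 (64.6 CPM, next 47.8) and Pcdh1 (418 CPM, next 318), that of mouse 122 was high for Pcdh7 (216 CPM, next 159), and that of mouse 159 was low for Pcdh19 (58.0 CPM, next 77.1). In NAc WT mice, the library of mouse 134 was high for Pcdh7 (271 CPM, next 175) and that of mouse 156 for Pcdhb3 (7.81 CPM, next 5.71). In BLA Lmo4gt/+ mice, the library of mouse 122 was high for Cdh15 (3.03 CPM, next 2.11), that of mouse 159 was high for Cdh6 (10.9 CPM, next 6.13), and that of mouse 147 was low for Cdh2 (117 CPM, next 136) and Pcdhb19 (11.2 CPM, next 13.8). The NAc libraries of mice 122, 134 and 149 and the BLA library of mouse 159 also stood apart in region markers or reads outside genes. Their part in these values was not tested. The BLA library of mouse 122 and the NAc library of mouse 159 were not among those that stood apart.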

How the results depend on the processing

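Each comparison was refitted under 5 to 7 alternatives (RLE factors, DESeq2, no low-count filter, no mouse block, and without the libraries named in the text). Leaving out BLA library 151 was chosen after seeing the data. All counts of members called stayed within 1.5 times their value. Of the cluster sums, those of alpha and gamma hold 1 member each, Pcdha11 and Pcdhgc5. The alpha sum in Lmo4gt/+ mice passed without mice 122, 149 and 159 (-0.49, adjusted p = 0.0443), which repeats the Pcdha11 result. The gamma interaction, near 0, was -0.0039 with no replicate block. Leaving the mouse block out gave 23 members higher and 16 lower in the NAc of Lmo4gt/+ mice, and 24 higher and 16 lower in WT mice. It ended the calls of Cdh13, Pcdh15 and Pcdhb5 in WT mice (adjusted p = 0.0625, 0.0745 and 0.0707) and of Cdh20 in Lmo4gt/+ mice (adjusted p = 0.0609), and with no block the interaction had 0 calls. Of 70 results of single genes chosen by the naming rule, 66 kept direction and side of the threshold in every alternative run (414 values), and the others were Cdh13, Pcdh9 in WT mice and Cdh20 in both genotypes, whose Lmo4gt/+ call was also lost without the filter (adjusted p = 0.117) and without mouse 122 (0.0788). Pcdhb5 and Pcdhb7 are not among the 70. The WT call of Pcdhb5 was lost in every alternative, with adjusted p from 0.0577 (RLE factors) to 0.106 (no filter). The Lmo4gt/+ call of Pcdhb7 was lost with DESeq2 (adjusted p = 0.0538), without the filter (0.0899), and without mouse 127 (0.0667) or mouse 122 (0.0615). In WT mice Pcdhb7 passed without mice 129, 134 and 156 (adjusted p = 0.0234). No paired analysis was possible for the genotype comparisons because the 2 genotypes are different mice. Depth limits Pcdhb1, Cdh23 and the 5 members under the filter. The causes were not tested.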
